A study of Mus musculus with 9 samples.

Results

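The open chromatin of 8 genes of the Notch pathway, Hey1, Hes1, Notch1, Notch2, Nrarp, Dtx1, Rbpj and Jag1, was followed through ATAC-seq peak lists of mouse LSK cells. A peak belonged to a gene when its summit lay inside the gene's GRCm38 span, or within 50 kb of it with that gene as the nearest protein-coding one. Peaks of all 9 lists that shared a base were joined into 76253 regions, of which 63 belonged to the 8 genes. Hey1 was chosen by the measured presence of a peak inside it in the 3 single mutants, so its difference from WT is described here and not tested. At the edge of the window, the farthest region inside it lay 46.2 kb from Rbpj (fold 5.77 in its strongest list) and the nearest outside it 52.0 kb from Hes1 (fold 5.15).

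LSK cells are the lineage-negative, Sca-1-positive, Kit-positive fraction of bone marrow that holds the haematopoietic stem cells, and ATAC-seq marks open DNA by the insertions of the Tn5 transposase. There were 2 libraries of WT, 2 of Bcat_KO (beta-catenin), 2 of HOXA9_KO, 2 of PRMT1_KO and 1 of the dKO (beta-catenin with Hoxa9), each from 50000 cells. The same mutants appear as KO in the titles and as knockdown in the genotype tags. The deleted part, the driver of deletion, the age of the mice and whether 2 libraries of a group came from separate animals are not given in the labels, so p-values measure only the spread between these libraries. The series text names transplanted Prmt1KO mice as the source and says nothing of transplantation for the other groups.

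The 9 lists held 10639 to 45460 peaks, with the fewest in the dKO. The background inferred at their summits ran from 2.41 reads per kb in the dKO to 6.29 and 7.38 in WT and 8.27 to 11.2 in the single mutants. It is the most frequent background of a list in reads, divided by the length of the shortest peak of that list. Undivided, it was 0.461 reads in the dKO, 1.35 and 1.03 in WT and 1.20 to 1.60 in the single mutants. Peak names in the dKO list follow another pattern than in the rest, and how that list was made cannot be told apart from its genotype. On chromosome Y below 90 Mb, WT had 0 peaks in both libraries, the single mutants 12 to 16 and the dKO 6, so sex and genotype cannot be told apart in any comparison with WT. Of 12 LSK marker genes, 10 or 11 had a peak inside or within 1 kb in each of the 8 paired libraries and 7 had one in the dKO. Ly6a, which encodes Sca-1, had none in any library by this measure, and Kit had none in the dKO. Because the lists were made from whole cell populations, opening in more cells and more opening per cell cannot be told apart.

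Notch receptors are cut when a ligand on a neighbouring cell binds them, and the freed intracellular part enters the nucleus and joins the DNA-binding protein Rbpj to switch on targets. Rbpj represses the same targets with corepressors when no receptor has been cut. In blood the pathway is best known for directing early progenitors to the T-cell lineage and for its role when stem cells first form in the embryo. Jag1 is a ligand, Notch1 and Notch2 are receptors, Hes1 and Hey1 are repressors of the basic helix-loop-helix class that the pathway induces, Nrarp is an induced inhibitor, and Dtx1 is an E3 ubiquitin ligase that is itself a target.

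The 250 bases before an annotated start are shown for the 6 of the 8 genes matched in RefSeq's promoter table (GRCm38.p6), because a peak overlapped this stretch in all 9 libraries at 3 genes, in the 8 paired libraries at 2, and in none at Dtx1. For Rbpj the first of the listed starts is used. They are written 5′ to 3′ on the gene's strand, and capitals mark a match, on either strand, to TGGGAA (the core of Rbpj sites), CACGTG or CACGCG (bound by Hes and Hey proteins), CTTTGAT (TCF and LEF) or TTTATNG (Hox).

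Jag1 chr2:137116521-137116770 (minus strand): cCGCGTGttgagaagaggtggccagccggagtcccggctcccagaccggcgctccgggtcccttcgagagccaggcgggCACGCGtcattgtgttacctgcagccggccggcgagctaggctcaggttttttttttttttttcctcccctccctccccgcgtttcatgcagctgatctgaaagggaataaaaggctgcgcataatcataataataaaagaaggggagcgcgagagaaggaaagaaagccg

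Notch1 chr2:26503823-26504072 (minus strand): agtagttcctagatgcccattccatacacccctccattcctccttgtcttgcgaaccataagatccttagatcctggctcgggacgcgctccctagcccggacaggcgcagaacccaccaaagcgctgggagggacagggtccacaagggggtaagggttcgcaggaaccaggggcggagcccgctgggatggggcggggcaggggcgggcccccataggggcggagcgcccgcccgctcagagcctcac

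Notch2 chr3:98013288-98013537 (plus strand): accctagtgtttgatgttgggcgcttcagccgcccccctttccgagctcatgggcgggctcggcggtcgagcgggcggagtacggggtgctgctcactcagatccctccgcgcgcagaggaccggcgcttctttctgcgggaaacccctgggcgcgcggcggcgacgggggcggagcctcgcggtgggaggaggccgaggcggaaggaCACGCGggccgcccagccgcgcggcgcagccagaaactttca

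Rbpj chr5:53590096-53590345 (plus strand): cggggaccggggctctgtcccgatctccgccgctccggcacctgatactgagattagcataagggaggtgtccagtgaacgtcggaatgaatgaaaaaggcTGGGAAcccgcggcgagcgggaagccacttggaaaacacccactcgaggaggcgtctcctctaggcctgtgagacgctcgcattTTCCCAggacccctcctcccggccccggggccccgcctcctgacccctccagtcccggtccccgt

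Nrarp chr2:25180508-25180757 (plus strand): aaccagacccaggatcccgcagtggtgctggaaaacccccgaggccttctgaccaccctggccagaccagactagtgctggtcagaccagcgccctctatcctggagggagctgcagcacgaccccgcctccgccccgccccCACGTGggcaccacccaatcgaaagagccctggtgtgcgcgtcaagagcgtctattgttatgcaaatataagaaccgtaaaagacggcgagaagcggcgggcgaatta

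Dtx1 chr5:120711670-120711919 (minus strand): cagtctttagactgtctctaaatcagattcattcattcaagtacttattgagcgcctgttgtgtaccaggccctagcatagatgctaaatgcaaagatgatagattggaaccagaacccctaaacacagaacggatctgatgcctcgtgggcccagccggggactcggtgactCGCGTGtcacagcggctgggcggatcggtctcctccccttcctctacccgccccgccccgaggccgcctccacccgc

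At Rbpj, whose product binds TGGGAA, the stretch held 2 copies of that motif, which 21.6% of 32851 promoters of this length held at least once. Jag1 held 2 copies of CACGCG, and Notch2 and Dtx1 held 1 each (7.62% of promoters held it). Nrarp held 1 CACGTG (6.02% of promoters). None of the 6 held CTTTGAT (3.21% of promoters) or TTTATNG (9.81%), and Notch1 held none of the motifs. These are letters in a window and not measured binding. The 6 shown were between 56.4% (Dtx1) and 72.0% (Notch2) G and C, against 53.2% over all promoters.

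The number of regions at the 8 genes differed between whole lists, whose lengths also differed. With a peak there were 28 and 21 regions in WT, 37 and 34 in Bcat_KO, 44 and 33 in PRMT1_KO, 33 and 35 in HOXA9_KO, and 4 for the single dKO library. PRMT1_KO replicate 1, which had the highest inferred background per kb, had the most and WT replicate 2 the fewest of the paired libraries. Each paired list was therefore cut at rank 28325 by −log10 p, as long as the list of WT replicate 2, and 40 of the 63 regions had a peak in at least 1 of these equal lists. There the genes had 23 and 21 regions in WT, 23 and 22 in Bcat_KO, 25 and 26 in PRMT1_KO, and 23 and 25 in HOXA9_KO. Of the 63 regions, 18 had a peak in all 8 whole lists and 21 in only 1 of them. Of the 40 in the equal lists, 12 were in all 8, against 34% of the 46847 regions of all genes.

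**Figure D1:**
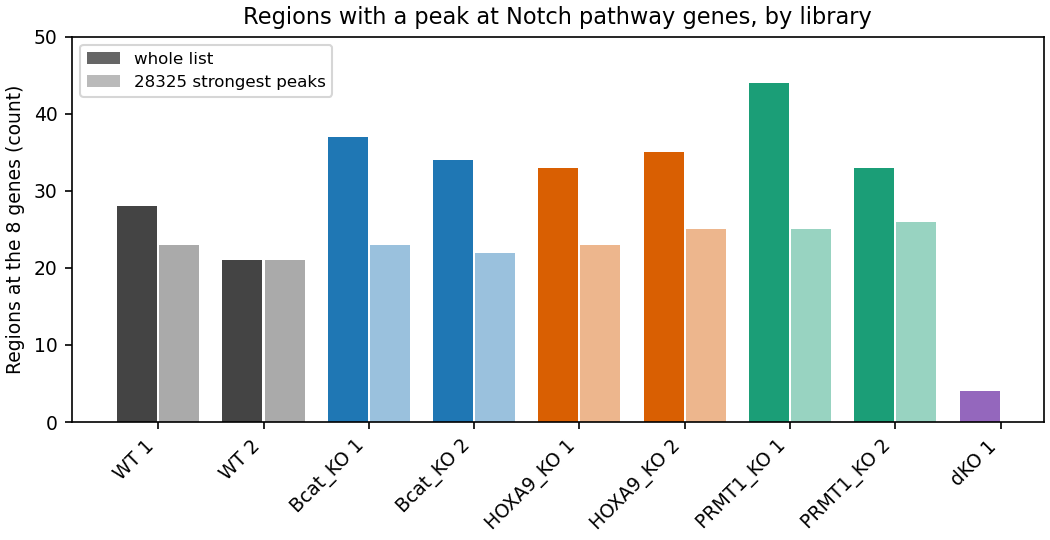
Regions with a peak at the 8 Notch pathway genes (count, vertical axis) in each library, in its whole list (solid bars) and in its 28325 strongest peaks (pale bars; none for the dKO, whose list is shorter). Whole lists range from 21 to 44 regions in the paired libraries and equal lists from 21 to 26.

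Inside Hey1, the 6 single-mutant libraries had a peak and the WT and dKO libraries had none. The region (chr3:8664544-8664944) lies within the Hey1 gene (chr3:8663359-8667038), with its strongest summit 1368 bp from one end and 2311 bp from the other. The authors' fold over the local background was 7.36 and 8.16 in Bcat_KO, 7.66 and 8.05 in PRMT1_KO, and 6.78 and 7.58 in HOXA9_KO, or 7.60 ± 0.500 over all (SD, n = 6). Bcat_KO overlapped with both other mutants in this value, and HOXA9_KO lay below PRMT1_KO without overlap. The fold is the authors' own value for each peak and is not scaled between libraries.

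By rank on −log10 p the Hey1 peak stood at 10278 and 9455 in Bcat_KO, 11453 and 9787 in PRMT1_KO, and 11423 and 9965 in HOXA9_KO. These are middling positions, within the strongest 14162 but far from the top. The deposited fold and −log10 p together correspond to 35 to 39 reads at the summit, where 3.72 to 4.31 were expected locally. The expected number exceeded the usual background of the same lists, which was 1.20 to 1.60 reads. The peak was 217 to 348 bp long, and its summit fell between 8664670 and 8664674 in 5 libraries and at 8664727 in Bcat_KO replicate 2.

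**Figure D2:**
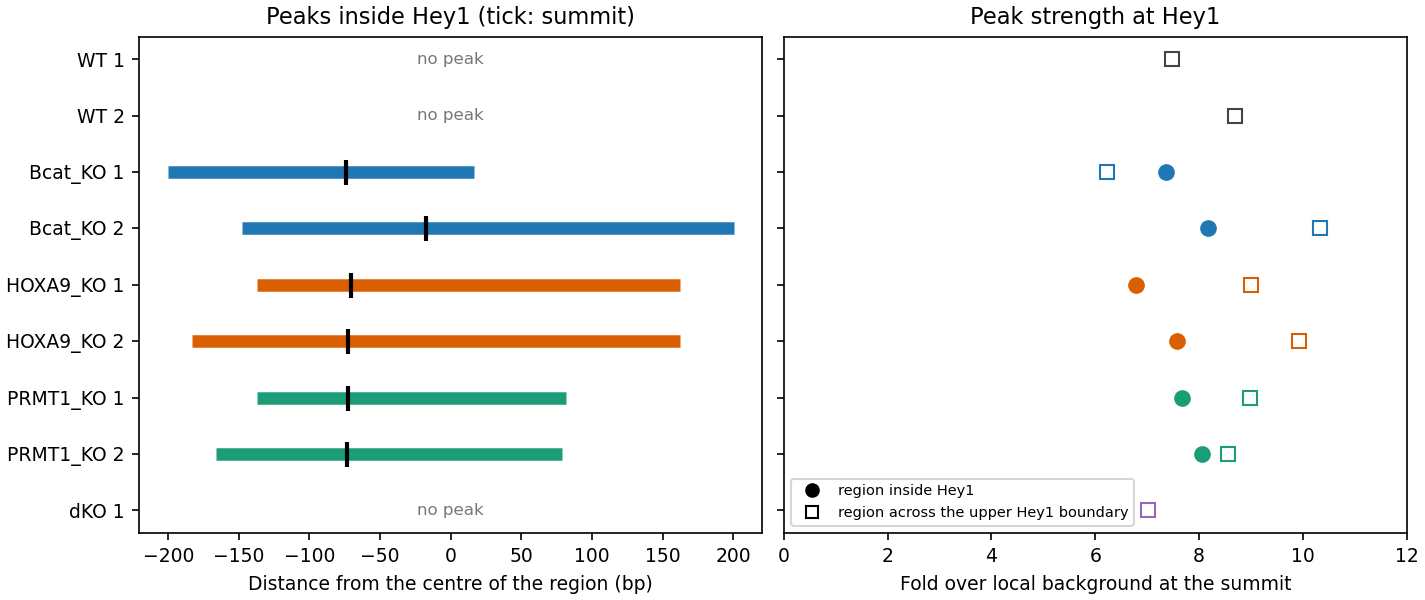
Left, extent of the peak inside Hey1 in each library, in bp from the centre of the region, with a tick at the summit. Right, fold over local background at the summit for the peak inside Hey1 (filled) and for the region across the upper boundary of the gene (open squares), with 6.78 to 8.16 inside Hey1 in the single mutants, no peak there in WT or the dKO, and a boundary region in all 9 libraries.

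The WT lists held many peaks weaker than this one. The lowest −log10 p of the Hey1 peak, 20.5, exceeded that of 75.1% and 74.9% of the peaks of the WT lists, and its lowest fold exceeded that of 62.3% and 56.1% of them. In the dKO 95% of the peaks had a −log10 p under 20.5, and no peak inside Hey1 was detectable at that depth. By the rule that called a region opened when it was in the strongest 14162 peaks of both mutant libraries and outside the 28325 strongest of both WT libraries, Hey1 was 1 of 19 regions opened in all 3 single mutants. The Hey1 call was lost in all 3 with rank by fold, a −log10 q of at least 5, or lists of dKO length. None of these settings could add a WT peak there. The WT libraries also differed from the single mutants in having 0 peaks on the male-specific part of chromosome Y, and the part of this in the Hey1 difference was not tested.

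The side of Hey1 with the higher coordinates was open in every library. The annotation used here gives no strand, and mouse Hey1 is known as background to be transcribed towards lower coordinates, which makes this the side of its start. A region there (chr3:8666752-8668102) had a summit 118 bp past the gene, inside the span of the predicted gene LOC115489673, to which the rule gives it. Its fold was 7.48 and 8.69 in WT, 6.22 and 10.3 in Bcat_KO, 8.97 and 8.56 in PRMT1_KO, 9.01 and 9.93 in HOXA9_KO, and 7.01 in the dKO. Bcat_KO spanned both WT values. Its rank was 6387 and 4730 in WT and between 5535 and 13416 in the single mutants, so the WT and mutant libraries overlapped here, unlike inside the gene. The nearest WT peak to the region inside Hey1 was this one, 2.68 kb from it.

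The other Hey1 region lay 31.3 kb from the gene (chr3:8631721-8632128) and was in 5 of the 8 paired lists. PRMT1_KO replicate 2 had it at rank 14245 with a fold of 8.29. In WT replicate 1, Bcat_KO replicate 1, HOXA9_KO replicate 2 and PRMT1_KO replicate 1 its rank was 28238 to 39719 and its fold 3.61 to 4.99. It was strong in 1 library and weak or unlisted in the rest.

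The 5 regions near a protein-coding gene whose ranks over the 8 paired libraries followed those of the Hey1 region most closely lay inside Rasa3 (Pearson's r = 0.999), Chl1 (0.996), Uty (0.996), Chd7 (0.996) and Pan3 (0.996). These coefficients are descriptions over 8 libraries that fall into a WT pair and 6 mutants, and carry no test. Chd7 (a chromatin remodeller gene), Pan3 (a gene of mRNA deadenylation) and Uty (on chromosome Y) shared with Hey1 the absence of a WT peak from the equal lists. Rasa3, the gene of a Ras GTPase-activating protein, had peaks in both WT libraries, at ranks 9910 and 9930 against 1846 to 2515 in the single mutants. At Chl1 the ranks were 7 in both WT libraries and 6 in each single mutant, so a high coefficient there rests on a difference of 1 rank.

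For the other 7 genes, whether genotype moved a region was tested on its rank in the equal lists, with a missing region placed at 28326. The exact permutation test ran over all 105 divisions of the 8 libraries into 4 pairs, and its smallest possible p is 0.00952. Since 15 of these divisions keep any given pair together, a shift in 1 genotype alone can leave a p of up to 0.143. Of the 38 regions of the 7 genes, 3 had an unadjusted p of at most 0.05, where 7.37% of all regions did, a share near that background. After Benjamini-Hochberg adjustment over 46847 regions by this permutation test 0 passed, as in the whole table (0% called, lowest adjusted p = 0.563). The smallest possible p of the test was shared by 693 regions, so no region could reach an adjusted p of 0.05 by itself. That 0 passed therefore does not show that these regions were unchanged. The 2-against-2 comparisons of a mutant with WT cannot give a p under 0.333.

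Among the 40 regions of the 8 genes, 1 was opened in Bcat_KO (background 0.269% of regions), 1 in HOXA9_KO (0.446%) and 1 in PRMT1_KO (0.188%), and in each mutant it was the region inside Hey1 that the choice of genes rested on. Closed regions numbered 0 in Bcat_KO (background 0.0832%), 0 in HOXA9_KO (0.16%) and 0 in PRMT1_KO (0.0704%). With backgrounds this low, a count of 0 in 40 regions is near the background. A region 41.8 kb from Hes1 had no peak in WT or HOXA9_KO and was outside the opened rule in the other mutants, at ranks 22594 and 15721 in Bcat_KO and 30573 and 23956 in PRMT1_KO.

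**Figure D3:**
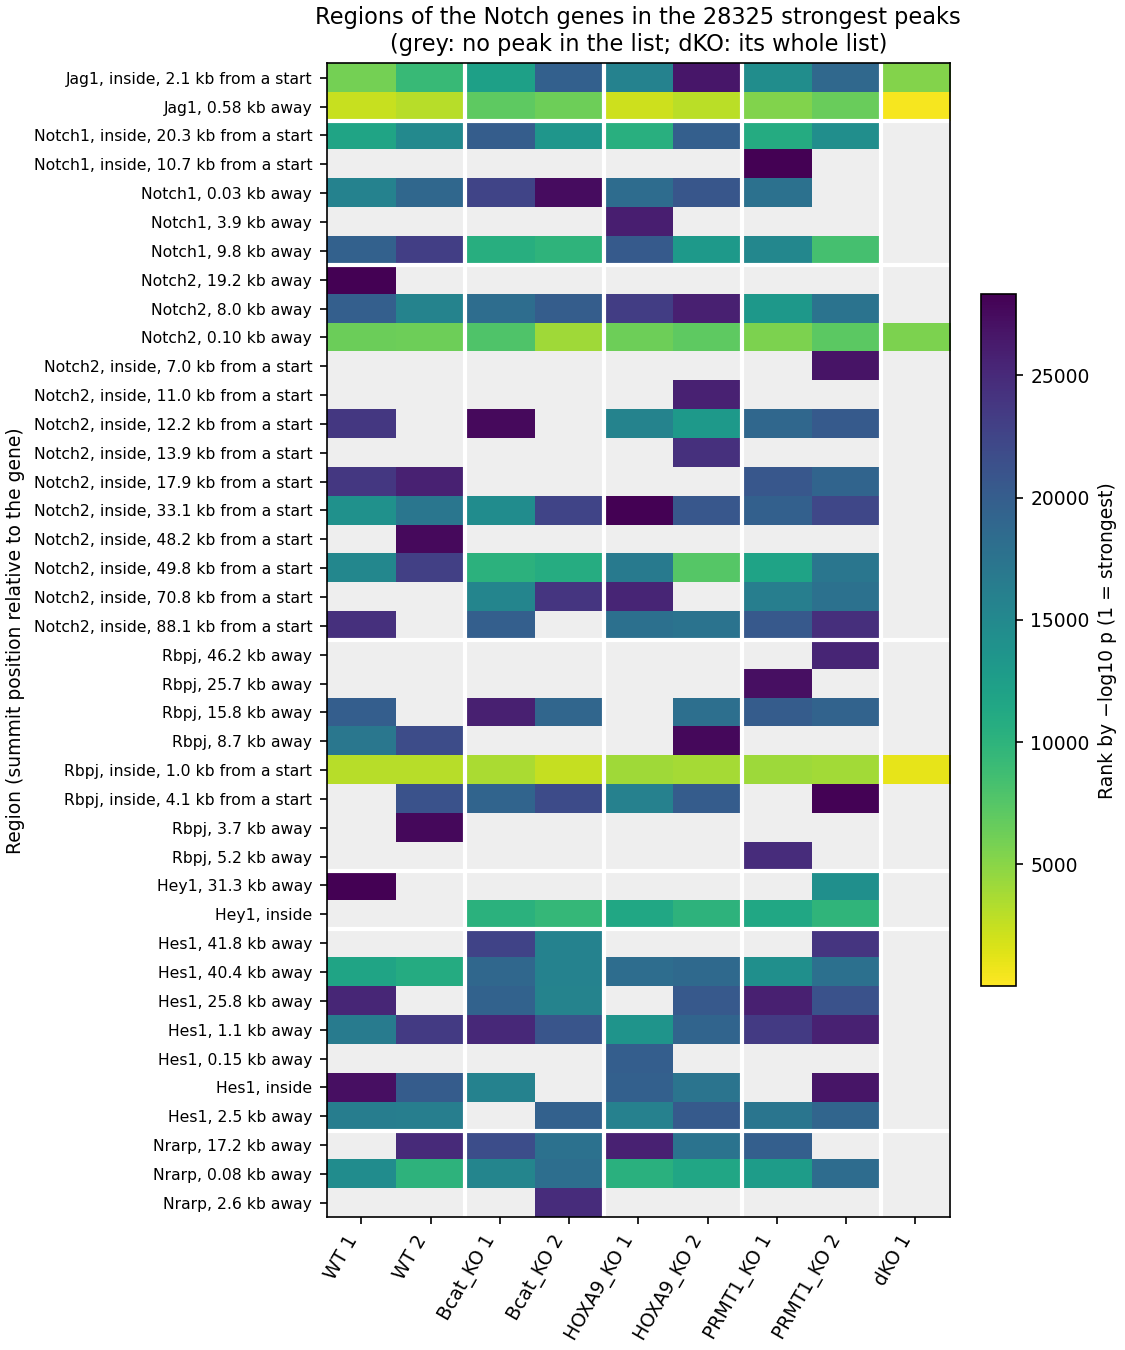
Rank by −log10 p (colour, 1 = strongest) of the 40 regions of the Notch pathway genes that were among the 28325 strongest peaks of at least 1 paired library, by library; grey means no peak in the list, and the dKO column shows its whole list. The region inside Hey1 is grey in both WT libraries and the dKO and filled in the 6 single-mutant libraries, while the starts of Jag1, Notch2 and Rbpj are filled in all 9.

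Jag1, the ligand, had one of the 3 starts open in all 9 libraries. Its start region (chr2:137116218-137117668), with a summit 577 bp before the start in the strongest list, stood at rank 2360 and 3068 in WT, 2121 and 2894 in HOXA9_KO, 7003 and 6286 in Bcat_KO, and 5406 and 6428 in PRMT1_KO. WT and HOXA9_KO overlapped and ranked above Bcat_KO and PRMT1_KO, which overlapped with each other. The exact permutation test over the 4 genotypes gave p = 0.0476, and the adjusted p was 0.580.

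The fold at the same place told a different order. It was 8.16 and 7.84 in WT, 10.1 and 10.1 in HOXA9_KO, 7.21 and 8.14 in Bcat_KO, and 8.43 and 8.21 in PRMT1_KO, so that PRMT1_KO was not below WT in fold. When summits rather than shared bases joined the peaks, the exact permutation p was 0.590. Markers of other cells were counted as genes with a peak inside or within 1 kb in the equal lists. Of 5 erythroid markers, 5 and 4 had one in WT, 4 and 4 in HOXA9_KO, 3 and 2 in Bcat_KO, and 2 and 2 in PRMT1_KO. Of 7 endothelial markers, 3 to 5 had one in each paired library, and Emcn and Tie1 had none in any. Of 6 stromal markers, 2 to 4 had one in the paired libraries, as did 2 or 3 of 7 T-cell, 2 or 3 of 6 B-cell and 1 or 2 of 7 granulocyte and monocyte markers. The part of other cell types in the Jag1 ranks was not tested.

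A further Jag1 region lay inside the gene, 2.1 kb after the start (chr2:137114241-137115049). It ranked 5918 and 9248 in WT, 12232 and 19686 in Bcat_KO, 14479 and 18795 in PRMT1_KO, and 15785 and 26605 in HOXA9_KO. All 6 single-mutant libraries lay below both WT libraries, but the mutant pairs were spread widely and overlapped (exact permutation p = 0.200, adjusted p = 0.670). Its fold was 5.69 and 4.89 in WT and 3.37 to 5.45 in the single mutants, which overlapped. In the dKO the inner region ranked 5205 (fold 4.24) and the start region 382 (fold 8.64).

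Of the 12 regions in every equal list, 2 ranked below both WT libraries in all 6 single-mutant libraries, this one and 1 at 40.4 kb from Hes1, where 9.73% of the 15951 such regions of all genes did so. Ranking above both WT libraries in all 6 was found for 0 of the 12, against 8.57%. Taken singly, Bcat_KO ranked below WT without overlap at 4 of the 12 (26% of all) and above at 2 (23%). HOXA9_KO ranked below WT at 5 (26.8%) and above at 0 (23.7%), and PRMT1_KO below at 5 (24.6%) and above at 1 (22.3%). The 12 regions are too few to tell these counts from the backgrounds.

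The 2 receptors differed in how many regions they had, 11 at Notch1 and 21 at Notch2, the longer gene. The start of Notch2 (chr3:98013157-98014116) was open in all 9 libraries. It ranked 6346 and 6306 in WT, 7778 and 4066 in Bcat_KO, 5572 and 7139 in PRMT1_KO, 6278 and 7001 in HOXA9_KO, and 5596 in the dKO. The exact permutation p was 1 with all groups overlapping.

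Inside Notch2, 2 weaker regions gave the lowest p of the 38. One, 12.2 kb after the start (chr3:98025493-98026373), ranked 15671 and 13101 in HOXA9_KO and 18911 and 20303 in PRMT1_KO. One WT and one Bcat_KO library listed it, at 23788 and 27649 (exact permutation p = 0.0286, adjusted p = 0.563). HOXA9_KO lay above every library of the other groups. Its fold was 6.43 and 6.06 in PRMT1_KO, 6.95 and 8.04 in HOXA9_KO, 4.41 in WT replicate 1 and 4.66 in Bcat_KO replicate 1.

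The other, 17.9 kb after the start (chr3:98031182-98031576), ranked 20657 and 19174 in PRMT1_KO and 23699 and 25718 in WT. In Bcat_KO and HOXA9_KO it had peaks in the whole lists, at ranks 29936 to 37865, which the equal lists left out (exact permutation p = 0.0286, adjusted p = 0.563). By rank PRMT1_KO was above WT, and WT above the rest, without overlap. The fold was 5.92 and 6.19 in PRMT1_KO, 4.44 and 3.79 in WT, 4.32 and 3.95 in Bcat_KO, and 4.09 and 3.69 in HOXA9_KO. In fold PRMT1_KO was again highest, but WT overlapped with both Bcat_KO and HOXA9_KO. With the lists as deposited, the exact permutation p rose to 0.162 for the region 12.2 kb after the start and to 0.143 for this one.

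A Notch2 region 8.0 kb before the start (chr3:98005144-98005712) was weakest in HOXA9_KO, at ranks 23142 and 25808. The other groups lay between 13202 and 19937 (exact permutation p = 0.0571, adjusted p = 0.580). WT overlapped with both Bcat_KO and PRMT1_KO, and PRMT1_KO lay above Bcat_KO without overlap. The region 49.8 kb after the start (chr3:98062696-98063898) was at 10125 and 10820 in Bcat_KO and 15208 and 22940 in WT. HOXA9_KO, at 16622 and 7445, overlapped with both, and the exact permutation p was 0.429 (adjusted p = 0.914).

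At Notch1 the start region (chr2:26503304-26504191) was moderate, with ranks of 15756 and 18812 in WT, 22567 and 27360 in Bcat_KO, 17706 and 31224 in PRMT1_KO, and 18308 and 20787 in HOXA9_KO. PRMT1_KO overlapped with every other group, and the exact permutation p was 0.352. A region inside the gene, 20.3 kb after the start (chr2:26483101-26483835), ranked between 10422 and 20003 with all groups overlapping (exact permutation p = 0.800).

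A further Notch1 region lay 9.8 kb before the start (chr2:26513058-26513875). It ranked 19563 and 23118 in WT, 10544 and 9855 in Bcat_KO, 15252 and 8344 in PRMT1_KO, and 20272 and 13085 in HOXA9_KO. Bcat_KO and PRMT1_KO lay above both WT libraries, and HOXA9_KO overlapped with WT. Its fold was 5.66 and 4.52 in WT and 6.17 to 10.5 in the single mutants, which did not overlap. The exact permutation p over the 4 genotypes was 0.162 (adjusted p = 0.623).

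**Figure D4:**
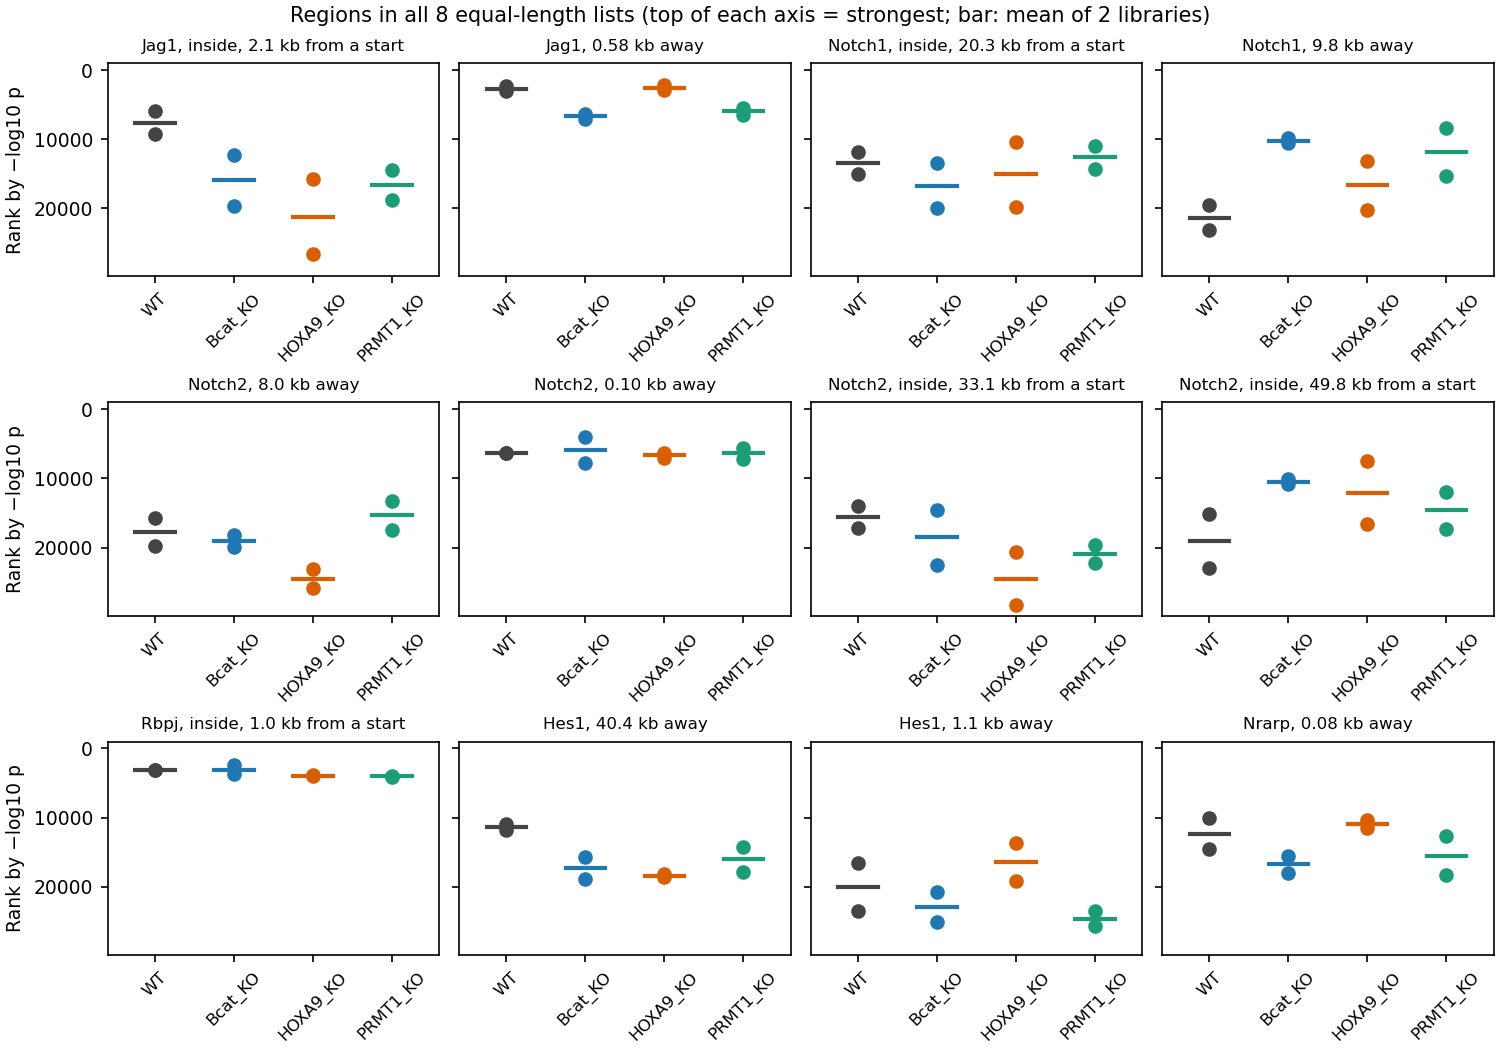
Rank by −log10 p (vertical axis, strongest at the top) in each library of the 12 regions found in all 8 equal lists, with a bar at the mean of the 2 libraries of a genotype. The groups overlap at the start of Notch2, HOXA9_KO and PRMT1_KO lie just below WT at the start of Rbpj, the Jag1 start is lower in Bcat_KO and PRMT1_KO, and the Jag1 region inside the gene and the Hes1 region 40.4 kb away are lower in all 6 single-mutant libraries than in WT.

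Rbpj, the DNA-binding protein of the pathway, had a strong region. It covered the start shown above (chr5:53588563-53590969) and ranked 3077 and 3096 in WT, 3650 and 2449 in Bcat_KO, 4134 and 3909 in PRMT1_KO, 4024 and 3816 in HOXA9_KO, and 1083 in the dKO. HOXA9_KO and PRMT1_KO lay below WT, and Bcat_KO spanned WT (exact permutation p = 0.248). The fold ran the other way, at 7.94 and 7.94 in WT and 8.32 to 10.8 in the single mutants. Of the other 8 Rbpj regions, 1 more had a peak in all 8 whole lists, 8.7 kb from the gene. It ranked 17048 and 21766 in WT and 27764 to 37658 in the longer lists of the single mutants, below WT in all 6. The exact permutation p was 0.143 (adjusted p = 0.580). In fold, WT (6.38 and 4.92) and the single mutants (4.22 to 5.46) overlapped there.

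Among the targets, Hes1 had 9 regions and Nrarp 5, while Dtx1 had 2 weak ones. The Hes1 region 40.4 kb from the gene (chr16:30024397-30025180) ranked 11734 and 10909 in WT, 18813 and 15722 in Bcat_KO, 14211 and 17881 in PRMT1_KO, and 18205 and 18612 in HOXA9_KO. WT lay above all 6 single-mutant libraries (exact permutation p = 0.0667, adjusted p = 0.580). In fold the WT values, 7.57 and 7.68, lay inside the single-mutant range of 6.44 to 8.34.

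Around the Hes1 gene itself (chr16:30065357-30067796) the peaks were weak and irregular. The region inside it ranked between 15723 and 43221 in the 8 lists, and Bcat_KO alone ran from 15723 to 37516. Regions 1.1 kb and 2.5 kb away had a peak in all 8 whole lists, with folds of 3.74 to 6.16 and 3.51 to 6.42 and exact permutation p of 0.238 and 0.257. In the whole lists, a region 0.148 kb from the gene had a peak in both Bcat_KO and both HOXA9_KO libraries, and none in WT or PRMT1_KO. Its folds were 3.40 to 4.87. It ranked 33602 and 37788 in Bcat_KO and 19872 and 28996 in HOXA9_KO. Only the equal list of HOXA9_KO replicate 1 held it, and the other ranks lay beyond the length of the WT replicate 2 list.

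The start of Nrarp (chr2:25180377-25181278) ranked 14540 and 10069 in WT, 15480 and 18065 in Bcat_KO, 12668 and 18339 in PRMT1_KO, and 10383 and 11536 in HOXA9_KO. Bcat_KO was below WT without overlap, while HOXA9_KO lay inside the WT range and PRMT1_KO overlapped it, and the test over genotypes gave an exact permutation p of 0.286. At Dtx1 the 2 regions, 1 inside the gene and 1 2.8 kb away, had folds of 3.39 to 3.85 in 1 or 2 libraries each, and neither reached an equal list. No peak was detectable over the Dtx1 start at the depth of these libraries.

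In the dKO, 4 of the 63 regions had a peak, namely 2 Jag1 regions and the starts of Notch2 and Rbpj. The region across the upper boundary of Hey1, which the rule leaves out of the 63, also had one, at rank 1962. Of regions in all 8 equal lists, 49% had a peak in the dKO, and 4 of the 12 at these genes did. The Jag1 start, the inner Jag1 region and the Rbpj start ranked higher in the dKO than in any other library. That held for 34.7% of the 7812 regions in all 9 lists. Ranks in a list this short show no change against longer ones, and with 1 library there is no replicate check.

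Beyond the 8 genes, 63 other genes of the pathway were listed by role, and 62 had at least 1 region, 347 in all, of which 211 were in an equal list. Opened regions numbered 0 in Bcat_KO, 1 in HOXA9_KO and 0 in PRMT1_KO, and closed regions 0 in each, against the backgrounds given above. By unadjusted exact permutation p of at most 0.05, 19 of the 211 passed, against 7.37% of all regions, and after adjustment 0 did. By role these were 13 of 95 at nuclear complex genes, 3 of 23 at genes of receptor cutting and trafficking, and 1 each of 14 at receptor glycosylation, 20 at turnover and 41 at target genes. Ligands (14 regions) and the other receptors (4) had 0.

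The opened region belonged to Heyl, the third member of the Hey family. It lay 10.5 kb from the gene (chr4:123260115-123260561) with a fold of 9.46 and 9.55 in HOXA9_KO. In Bcat_KO the fold was 5.18 and 6.26, in PRMT1_KO replicate 1 it was 4.99, and WT and PRMT1_KO replicate 2 had no peak. HOXA9_KO stood above all other libraries, at ranks 12087 and 12732. The test over all genotypes gave an exact permutation p of 0.143 (adjusted p = 0.580), and 1 of 211 is near the HOXA9_KO background of 0.446%.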

How the data were processed

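Tn5-treated DNA of LSK cells was amplified, size-selected and sequenced, per the labels' protocols, and 9 peak lists of 1 library each were used. The submitters' processing notes name Bowtie2 2.4.2, SAMtools 1.14, Picard 2.27.4, MACS2 and the builds GRCm38 and mm10, and give no settings. The authors deposited, for each peak, a fold (linear ratio of signal to local background at the summit), the −log10 p and −log10 q (p-values and q-values) of the caller, a score and the offset of the summit from the peak's start. The deposited score follows the −log10 q and was not used further. The column layout is that of a narrowPeak file and the files have no header.

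Peaks of all lists were merged where they shared at least 1 base, and a region was given to the nearest protein-coding gene by its strongest summit. Lists of the 8 paired libraries were shortened to 28325 peaks by −log10 p, and an absent region was placed at rank 28326. A region was called opened when it was within rank 14162 in both mutant libraries and absent from both equal WT lists, and closed in the reverse case. Ranks were tested over 4 genotypes with an exact permutation test on all 105 divisions and Benjamini-Hochberg adjustment over 46847 regions. The procedure was tested on simulated data, at an unadjusted exact permutation p of at most 0.05. It found 100% of changed regions with 4 genotypes at 4 levels, but 35% with 1 genotype shifted. Of unchanged regions it found 4.79% in each case. The simulated spread between replicates and the size of the shifts were set in advance and not taken from these lists. Every simulated region had a value in every library, and ranks ran over 75328 regions without an absent rank. These shares are therefore not the power of the test on these data. Reads at summits were recovered from the fold and −log10 p, within 0.01 of the deposited value. The genes, the pathway list, the marker lists and the tests were chosen with earlier results of these data known. Named regions were those of the 8 genes, the 5 most like Hey1 by Pearson's r, and called regions of the pathway list. Python 3.11.15, numpy 2.4.6, pandas 2.3.3, SciPy 1.17.1 and Matplotlib 3.10.9 were used. Same-numbered libraries of different groups did not deviate together (correlations from -0.00785 to 0.0388), so numbers were not treated as pairs.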

Additional observations from a re-analysis of the deposited data

How the results depend on the processing

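Of 95 values recomputed under other settings, 77 stayed the same or close and 18 moved. Among the 77 are counts of closed regions that stayed at 0. Counts could not reverse, nor could the Hey1 difference, because WT was always placed past the end of the list. The WT lists as deposited had no peak inside Hey1, and no setting could add one. WT had no position there and was placed just past the end of each list, so the difference rests on the mutant ranks alone. In percent of list length, the mean position of the Hey1 region in the single mutants differed from this WT placement by -63.3 percentage points. The difference was -75.4 with lists as deposited, -4.82 with lists shortened to the 10639 peaks of the dKO, -45.4 with rank by fold and -47.7 with a −log10 q of at least 5, and -64.1 to -62.6 when 1 library was left out. Opened regions fell from 1 to 0 in Bcat_KO, HOXA9_KO and PRMT1_KO in the settings of dKO length, rank by fold and stricter q. Lists of dKO length and the stricter q both shorten the lists, which makes the opened rule stricter by construction. With the stricter q the Hey1 peaks of the single mutants stood at a mean of 52.3% of list length, against 36.7% as reported. For rank by fold the cause was not tested. With peaks joined by summits within 250 bp, PRMT1_KO had 2, with 1 at Rbpj added.

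As reported, 3 of 38 regions had an unadjusted exact permutation p of at most 0.05. The count was 1 of 8 with lists of dKO length and 1 of 26 with the stricter q. Among regions of all genes, 1273 of 16055 passed with lists of dKO length and 2453 of 31181 with the stricter q, against 3452 of 46847 as reported. With the replicate number as a block the count was 0 of 38, and the permutation p of the Jag1 start and the Notch2 regions was 0.125, 0.0833 and 0.0833. That setting had only 24 divisions, so a region passed only where no other division was as extreme. Of all regions, 1977 of 46847 passed there, so a count of 0 of 38 says little about these regions. The Jag1 start had an exact permutation p of 0.0571 without WT replicate 2 or without HOXA9_KO replicate 1, and 0.0762 without Bcat_KO replicate 1 or without PRMT1_KO replicate 1. The Notch2 region 12.2 kb after the start had 0.0571 by the same permutation test without PRMT1_KO replicate 1. Over all settings the permutation p ran from 0.0286 to 0.590 for the Jag1 start, 0.00952 to 0.162 for the Notch2 region 12.2 kb after its start and 0.0286 to 1 for the one 17.9 kb after it. The lower inferred background per kb of the WT lists and of the dKO list limits what an absent peak shows. Without division by the shortest peak, WT replicate 1 (1.35 reads) lay inside the range of the single mutants (1.20 to 1.60).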
